A study of Homo sapiens with 18 samples.

Results

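Ribosome biogenesis genes were examined as a list of 43 genes that encode nucleolar proteins, RNA polymerase I subunits and factors, and ribosome assembly factors. The genes were taken from a fixed list of symbols, which was matched to the Ensembl gene IDs of the count table and not by a cutoff on measured values, though the list was drawn up with earlier results of these data known. All 43 were found among the 60252 genes of the table. Of these, 42 passed the filter on low counts, and 21326 genes passed in all. DKC1, the pseudouridine synthase of the box H/ACA ribonucleoproteins, did not pass because it was listed at 0 counts in every library.

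Ribosomes are built in the nucleolus. RNA polymerase I copies the ribosomal RNA precursor, small nucleolar ribonucleoproteins (snoRNPs) guide its modification and early folding, and a large number of assembly factors cut it, fold it and load ribosomal proteins onto the small and the large subunit. Genes of this pathway are commonly transcribed together in growing cells, and MYC, a transcription factor that binds the DNA motif called the E-box, is known to act on many of them. Ribosomal protein genes form a separate class, much of whose control is exerted on translation.

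The measurements came from MCF-10A, a human line of breast epithelial cells that are immortal but form no tumours, kept for 8 days in three-dimensional culture in a gel of basement membrane proteins (Matrigel). All cells had received a retroviral vector. In the Control group the vector (PWZL) was empty, and in the overexpression (OE) groups it held the coding sequence of SRSF2 (SRSF2-OE), SRSF4 (SRSF4-OE), SRSF6 (SRSF6-OE), SRSF9 (SRSF9-OE) or TRA2B (TRA2B-OE), all of them proteins that bind pre-mRNA and regulate splicing. Each line was a stably transduced culture, and the labels do not say whether replicates came from separate transductions or cultures, so the p-values below rest on a spread between libraries that may be only technical.

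There were 6 groups of 3 samples. In 4 groups (TRA2B-OE, SRSF4-OE, Control and SRSF6-OE), replicates 1 and 2 were lanes of a single library and were summed, which left 2 libraries in each of those groups and 3 each in SRSF2-OE and SRSF9-OE, 14 in all, with 42959069 to 121601376 counts. The summed libraries form 1 label set (a library ID in the description) and the other 10 libraries, with numeric labels, the other. SRSF2-OE and SRSF9-OE lie wholly in the numeric set. The introduced factor was at 359 to 839 CPM (read counts scaled to a common library size with edgeR's TMM factors) for SRSF9 in SRSF9-OE against 92.4 and 95.4 CPM in Control, and at 168 and 187 CPM for SRSF4 in SRSF4-OE against 71.4 and 95.5 CPM. SRSF2 in SRSF2-OE replicate 1 (214 CPM against 176 and 204 CPM in Control) and TRA2B in TRA2B-OE replicate 3 (147 CPM against 105 and 106 CPM) were nearer to Control. SRSF6 stood at 417 and 283 CPM in the libraries labelled SRSF6-OE and at 400 and 239 CPM in Control, so these libraries are referred to by their label throughout. All 8 basal epithelial markers were detected, with a summed level of 15857 to 37605 CPM per library. In the RNA of whole cultures, fewer cells of a type and less RNA per cell cannot be told apart.

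The biogenesis genes as a list lay above Control in all 5 overexpression groups, by a modest amount. The median log2 fold change over the 42 genes was 0.34 in SRSF2-OE, 0.43 in SRSF4-OE, 0.44 in the libraries labelled SRSF6-OE, 0.41 in SRSF9-OE and 0.39 in TRA2B-OE. Over all 21326 genes the corresponding medians were 0.04, -0.04, -0.03, 0.00 and -0.00. The fold change was above 0 for 38, 40, 40, 42 and 41 of the 42 genes in the same order, against 53.0%, 46.9%, 47.9%, 50.2% and 49.9% of all genes. The 5 comparisons share the same 2 Control libraries, so they are not separate pieces of evidence. Averaged over the 5 groups, 41 of 42 genes were above Control, with a median of 0.40, against -0.02 over all genes. Single libraries moved the median by over 1.5 times: in SRSF2-OE it was 0.22 without SRSF2-OE replicate 2 and 0.52 without Control replicate 3, and in TRA2B-OE it was 0.22 without TRA2B-OE replicates 1-2.

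No single biogenesis gene passed edgeR's quasi-likelihood test after Benjamini-Hochberg adjustment over all genes at 0.05, in any of the 5 comparisons, in their mean or in the test for any difference among the 6 groups. The share of all genes called by that rule was 0% in SRSF2-OE, 0% in SRSF4-OE, 0.00469% in the libraries labelled SRSF6-OE, 0% in SRSF9-OE and 0.00938% in TRA2B-OE, with 0% for the mean and 0.0422% for any difference. The smallest adjusted p among the 42 genes was 0.127, 0.180, 0.112, 0.870 and 0.139 in the order above, 0.0968 for the mean and 0.171 for any difference. At an unadjusted p under 0.05, 15, 19, 14, 15 and 14 biogenesis genes were higher and 0 were lower in the 5 comparisons, where 7.02%, 7.05%, 10.4%, 2.54% and 6.62% of all genes were higher. For the mean of the 5 groups 23 were higher, against 7.65% of all genes. In the test for any difference, 7 of 42 had an unadjusted p under 0.05, near the 13.6% of all genes.

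DESeq2, fitted with the same design, called 2 biogenesis genes higher in SRSF2-OE (NOP56 and PPAN) where it called 1.27% of all genes higher. It called 4 in SRSF4-OE (NOP56, NCL, POLR1C and PPAN) against 1.43%, and 7 in the libraries labelled SRSF6-OE (NOP56, POLR1C, NAT10, DDX10, PPAN, RRS1 and GRWD1) against 3.77%. SRSF9-OE had 0 of 42 against 0.0563%, and TRA2B-OE had 2 (NOP56 and PPAN) against 1.27%. For the mean of the 5 groups DESeq2 called 6 (NOP56, NOLC1, POLR1C, NAT10, PPAN and EBNA1BP2) against 2.09% of all genes. In its test for any difference it called NOP56 and PPAN, 2 of 42, against 7.41% of all genes. None was called lower. On simulated counts, DESeq2 called 45 to 58 unchanged genes per comparison with Control at this threshold, so single calls are uncertain. In SRSF9-OE the measured counts gave 15 calls over all genes, fewer than the 58 unchanged genes of the simulation. The simulation thus does not give the number of false calls in these data.

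**Figure D1:**
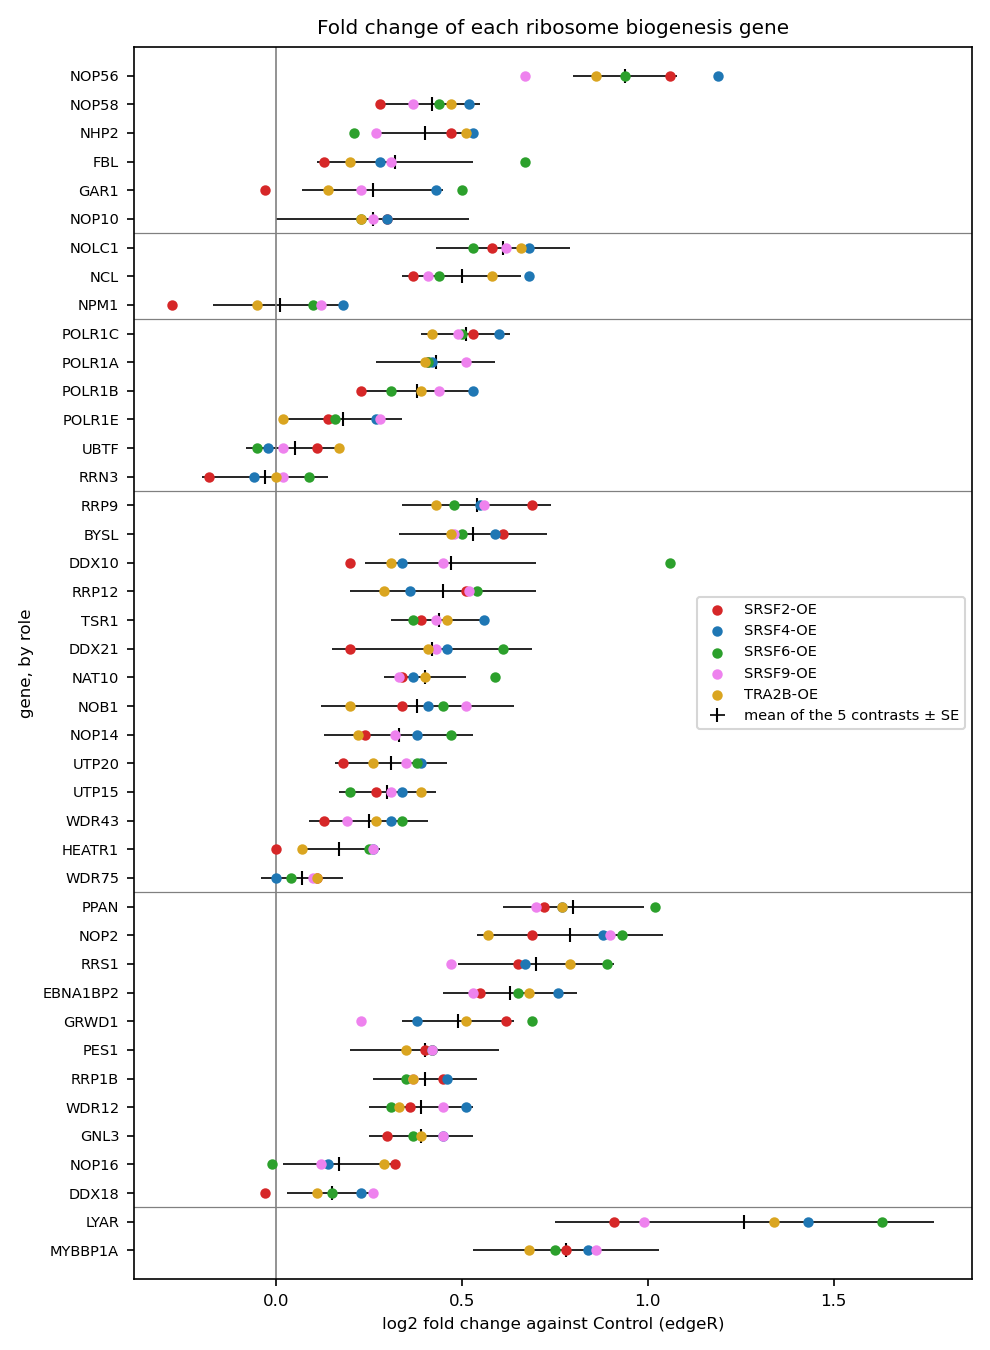
Log2 fold change against Control from edgeR (horizontal axis) for each of the 42 tested genes (rows, grouped by role), with a coloured point for each overexpression group and a black tick with bars for the mean of the 5 contrasts ± SE. Most points lie to the right of 0; by the mean LYAR and NOP56 lie farthest, and NPM1, RRN3 and UBTF straddle 0.

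A count that does not rest on a model gave a similar picture of direction. Every library of the group lay above both Control libraries for 22 genes in SRSF2-OE (16.7% of all genes), 33 in SRSF4-OE (25.3%), 31 in the libraries labelled SRSF6-OE (22.8%), 31 in SRSF9-OE (16.5%) and 28 in TRA2B-OE (18.3%). For 19 of the 42 genes, all 12 overexpression libraries lay above both Control libraries, against 4.31% of all genes. The 19 were NOP56, NOP58, NCL, NOLC1, POLR1C, BYSL, RRP9, RRP12, NAT10, TSR1, NOP2, WDR12, GNL3, PPAN, RRS1, EBNA1BP2, RRP1B, GRWD1 and MYBBP1A.

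**Figure D2:**
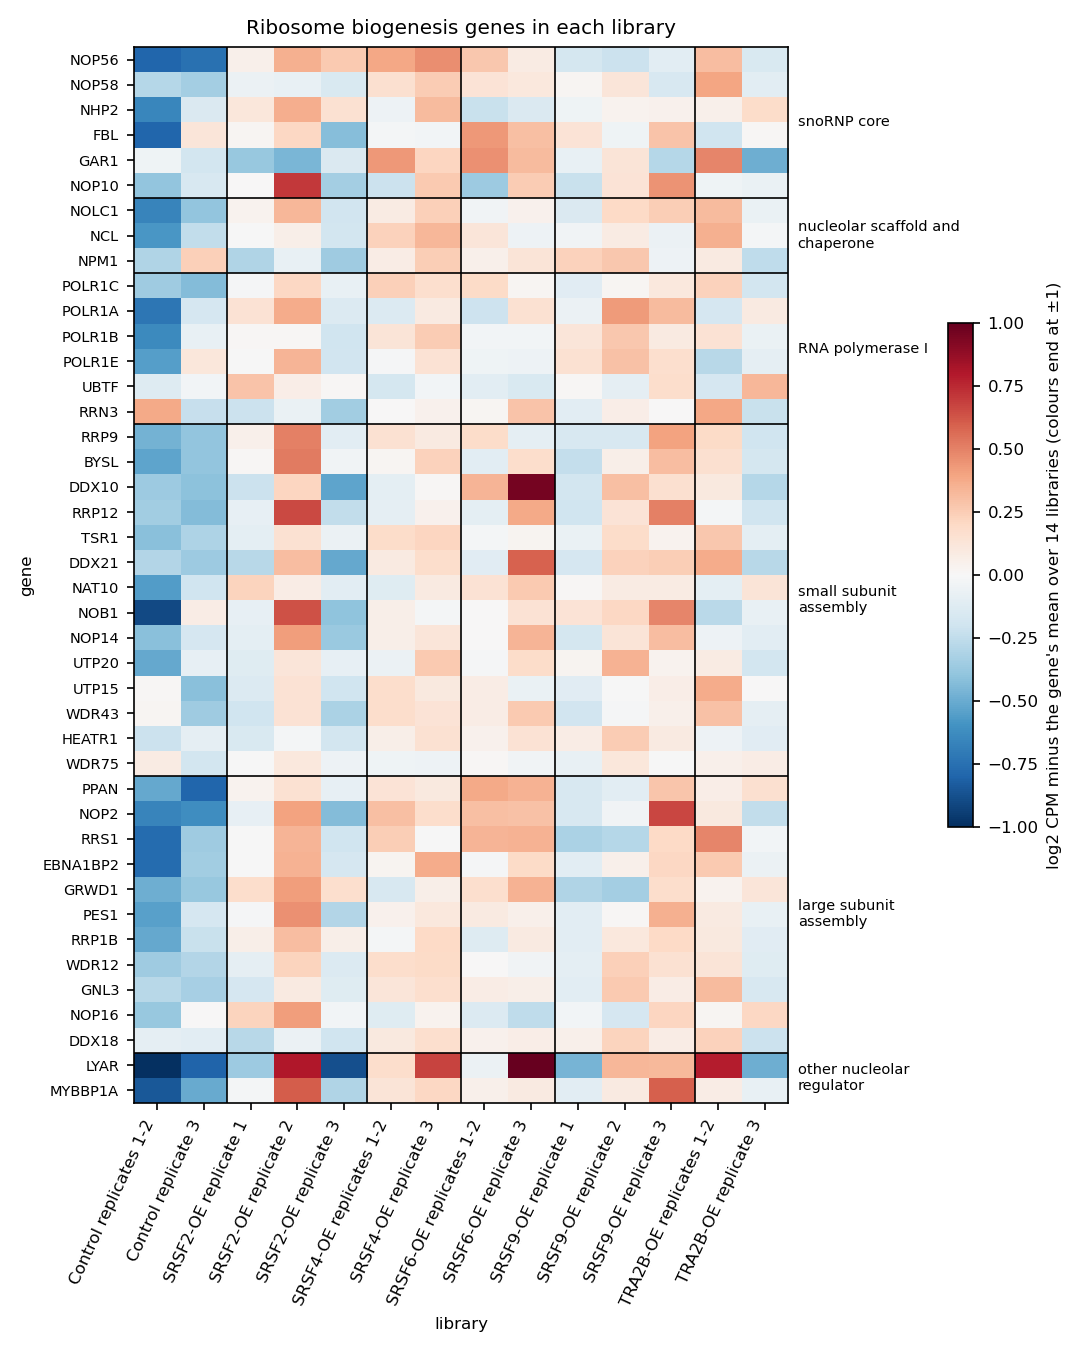
Log2 CPM of each gene (rows, by role) in each library (columns), as the difference from that gene's mean over the 14 libraries. The columns of both Control libraries are mostly blue, Control replicates 1-2 more so, and SRSF2-OE replicate 2 is mostly red.

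Because MYC binds the E-box, the promoters of the list were read for that motif, and the sequences printed here show where it lies. RefSeq promoter windows on GRCh38.p14 (250 bases before to 50 after each gene's start) were matched for 36 of the 43 genes. The E-box CACGTG, which reads the same on both strands, was present in 12 of 36 windows (33.3%), against 7.43% of 27305 windows over all genes, 26% of 104 windows of other assembly genes and 4.76% of 63 windows of ribosomal protein genes. The ETS core CGGAAG, searched on both strands, was present in 44.4% against 19.9% of all windows. It was more frequent in windows of other assembly genes (64.4%) and of ribosomal protein genes (61.9%) than in the list. The TATA motif TATAAA, also on both strands, was present in 2.78% against 12% of all windows, 5.77% for other assembly genes and 7.94% for ribosomal protein genes. Matches of different motifs among these 3 cannot share letters, and a match is a description of the letters and not of binding. In the stretches below, from 70 bases before the start to the 10th base after it, 5′ to 3′ on the gene's strand, capitals mark the E-box. The first 4 genes carry it just before or at the start: NAT10 (chr11:34105559-34105638, plus strand), NOP10 (chr15:34343127-34343206, minus strand), RRP9 (chr3:51941895-51941974, minus strand) and UTP20 (chr12:101280035-101280114, plus strand). The other 4 stand for genes with high fold changes or DESeq2 calls whose whole window holds no CACGTG: NOP56 (chr20:2652562-2652641, plus strand), PPAN (chr19:10106153-10106232, plus strand), POLR1C (chr6:43517019-43517098, plus strand) and NCL (chr2:231464475-231464554, minus strand).
NAT10: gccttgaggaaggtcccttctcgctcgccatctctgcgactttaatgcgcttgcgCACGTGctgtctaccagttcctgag
NOP10: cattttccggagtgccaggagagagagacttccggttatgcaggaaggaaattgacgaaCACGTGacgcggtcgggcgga
RRP9: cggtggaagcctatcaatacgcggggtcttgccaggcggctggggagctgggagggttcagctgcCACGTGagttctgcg
UTP20: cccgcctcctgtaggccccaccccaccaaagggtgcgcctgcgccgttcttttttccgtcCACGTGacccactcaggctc
NOP56: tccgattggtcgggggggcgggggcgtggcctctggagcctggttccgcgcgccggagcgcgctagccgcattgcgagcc
PPAN: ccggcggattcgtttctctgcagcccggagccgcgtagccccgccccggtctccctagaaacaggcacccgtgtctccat
POLR1C: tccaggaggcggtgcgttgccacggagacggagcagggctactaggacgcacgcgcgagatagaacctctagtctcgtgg
NCL: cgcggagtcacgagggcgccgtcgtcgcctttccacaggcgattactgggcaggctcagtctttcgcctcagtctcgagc

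The first base of the E-box lay 15 bases before the start in NAT10 (position -15), at -11 and -170 in NOP10, at -5 in RRP9 and at -10 in UTP20. It lay at -237 in EBNA1BP2 and after the start in FBL (7), NOP14 (16), WDR43 (4), BYSL (29), NOP2 (36), PES1 (14) and MYBBP1A (28). Genes with and without the motif in the window read, 1 per gene, had similar median fold changes. Over the mean of the 5 groups, the median was 0.40 (range 0.25 to 0.79) for the 12 tested genes with it and 0.39 (range -0.03 to 1.26) for the 23 without it. Other start sites and sequence outside the windows were not read, and binding by MYC was not tested.

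Among the snoRNP core proteins, NOP56 had the smallest p of the whole list. NOP56 is a scaffold protein of the box C/D snoRNPs, which guide ribose methylation of ribosomal RNA. In each group below, values follow the order of replicates, the summed library first. NOP56 stood at 132 and 137 CPM in Control, at 238, 293 and 274 CPM in SRSF2-OE, at 299 and 315 CPM in SRSF4-OE, at 276 and 242 CPM in the libraries labelled SRSF6-OE, at 203, 197 and 213 CPM in SRSF9-OE and at 284 and 206 CPM in TRA2B-OE. Every overexpression library lay above both Control libraries, and the lowest of them, in SRSF9-OE, was clear of the higher Control library. The log2 fold change was 1.06 ± 0.17 (SE) in SRSF2-OE, 1.19 ± 0.18 in SRSF4-OE, 0.94 ± 0.17 in the libraries labelled SRSF6-OE, 0.67 ± 0.17 in SRSF9-OE and 0.86 ± 0.17 in TRA2B-OE. The edgeR adjusted p was 0.127, 0.180, 0.112, 0.870 and 0.139, and the DESeq2 adjusted p was 3.3e-05, 1.7e-06, 2.2e-04, 0.272 and 1.9e-03. Without SRSF2-OE replicate 1, whose SRSF2 level was near Control, edgeR's adjusted p in SRSF2-OE was 0.0471 (log2 fold change 1.14 ± 0.19), in a fit that called 0.325% of all genes. The gene holds 5 snoRNA genes in GENCODE 29 models (GRCh38, chromosome 20, 2652145 to 2658393, plus strand), and the sources used here do not say how the authors' counting treated reads from those.

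The other snoRNP proteins moved less. NOP58, the partner of NOP56, ranged from 62.1 CPM in Control replicate 3 to 104 CPM in TRA2B-OE replicates 1-2, with all 12 overexpression libraries above Control and a mean log2 fold change of 0.42 ± 0.13. FBL, fibrillarin, the methyltransferase of the same particle, stood at 89.3 and 168 CPM in Control, 157, 178 and 115 CPM in SRSF2-OE, 152 and 152 CPM in SRSF4-OE, 208 and 190 CPM in the libraries labelled SRSF6-OE, 169, 150 and 188 CPM in SRSF9-OE and 134 and 156 CPM in TRA2B-OE. The Control libraries were far apart for FBL, so that groups other than the one labelled SRSF6-OE overlapped Control, where the log2 fold change was 0.67 ± 0.27 (edgeR adjusted p = 0.225). Of the box H/ACA proteins, which guide pseudouridylation, NHP2 ranged from 65.3 to 132 CPM and had a mean log2 fold change of 0.40 ± 0.12, GAR1 ranged from 12.0 to 23.7 CPM (0.26 ± 0.19) and NOP10 ranged from 50.8 to 109 CPM (0.26 ± 0.26). The lowest and the highest GAR1 library were both TRA2B-OE. DKC1, the enzyme of that particle, was at 0 counts in every library; RPL10 and RPS25, ribosomal protein genes in wide use, were near 0 as well, so the 0 says nothing of its expression.

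NCL (nucleolin) and NOLC1 (which carries snoRNPs in the nucleolus and Cajal bodies) were above Control in all 12 libraries, and NPM1 (nucleophosmin, a chaperone of late assembly and export) was not. NCL stood at 550 and 695 CPM in Control, 820, 857 and 722 CPM in SRSF2-OE, 963 and 1032 CPM in SRSF4-OE, 896 and 793 CPM in the libraries labelled SRSF6-OE, 801, 868 and 790 CPM in SRSF9-OE and 1053 and 809 CPM in TRA2B-OE. Its largest log2 fold change was 0.68 ± 0.20 in SRSF4-OE (edgeR adjusted p = 0.244, DESeq2 adjusted p = 0.0351). NOLC1 stood at 149 and 180 CPM in Control, 242, 297 and 206 CPM in SRSF2-OE, 249 and 278 CPM in SRSF4-OE, 230 and 243 CPM in the libraries labelled SRSF6-OE, 214, 271 and 281 CPM in SRSF9-OE and 294 and 226 CPM in TRA2B-OE. Its mean log2 fold change was 0.61 ± 0.18, with an edgeR adjusted p of 0.195 and a DESeq2 adjusted p of 0.0496.

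NPM1 was the most abundant gene of the list per kilobase of exon, at a mean of 274 CPM per kb, ahead of NOP10 (124) and NCL (120). It stood at 842 and 1225 CPM in Control, 843, 985 and 812 CPM in SRSF2-OE, 1094 and 1230 CPM in SRSF4-OE, 1073 and 1136 CPM in the libraries labelled SRSF6-OE, 1218, 1248 and 1003 CPM in SRSF9-OE and 1103 and 872 CPM in TRA2B-OE. The Control libraries nearly spanned the range of the rest, and in each comparison the groups overlapped. NPM1 had a log2 fold change of -0.28 ± 0.22 in SRSF2-OE and between -0.05 and 0.18 in the other 4. It became 0.10 ± 0.29 in SRSF2-OE without Control replicate 3. NPM1 has 45 named pseudogenes in GENCODE 29, which the authors' counting could have given some of its reads.

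Of the RNA polymerase I genes, the subunits POLR1A, POLR1B and POLR1C had 10, 11 and 12 of the 12 overexpression libraries above both Control libraries, and the subunit POLR1E had 5. The factor RRN3 overlapped Control in every group, and UBTF did in all but SRSF2-OE. POLR1C, a subunit shared with RNA polymerase III, stood at 26.7 and 25.2 CPM in Control, 33.8, 39.3 and 32.4 CPM in SRSF2-OE, 40.4 and 38.4 CPM in SRSF4-OE, 39.0 and 34.7 CPM in the libraries labelled SRSF6-OE, 31.5, 34.5 and 36.7 CPM in SRSF9-OE and 40.1 and 30.1 CPM in TRA2B-OE. All 12 libraries were above both Control libraries. Its log2 fold change ran from 0.42 ± 0.15 in TRA2B-OE to 0.60 ± 0.16 in SRSF4-OE, and the DESeq2 adjusted p was 0.0288 in SRSF4-OE and 0.0498 in the libraries labelled SRSF6-OE (edgeR adjusted p = 0.224 and 0.176).

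POLR1B, the second largest subunit, stood at 46.1 and 67.8 CPM in Control, 72.0, 72.1 and 62.4 CPM in SRSF2-OE, 78.3 and 85.1 CPM in SRSF4-OE, 70.1 and 70.2 CPM in the libraries labelled SRSF6-OE, 77.7, 86.2 and 76.2 CPM in SRSF9-OE and 79.2 and 68.2 CPM in TRA2B-OE. SRSF2-OE replicate 3 fell between the Control libraries, and the other 11 lay above them. The mean log2 fold change was 0.38 ± 0.14 for POLR1B, 0.43 ± 0.16 for POLR1A, the largest subunit, and 0.18 ± 0.16 for POLR1E. Within the numeric label set POLR1E lay on both sides of Control, with log2 differences of -0.07, 0.03, -0.16, 0.09 and -0.20 in the usual order of groups. Within the library ID set POLR1E was higher, by 0.53 in SRSF4-OE, 0.51 in the library labelled SRSF6-OE and 0.27 in TRA2B-OE.

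RRN3, which brings the polymerase to the promoter and is known to be set by growth signals, stood at 63.0 and 41.3 CPM in Control, 41.7, 46.2 and 38.2 CPM in SRSF2-OE, 48.6 and 49.8 CPM in SRSF4-OE, 49.2 and 59.2 CPM in the libraries labelled SRSF6-OE, 45.1, 50.9 and 48.6 CPM in SRSF9-OE and 63.2 and 41.4 CPM in TRA2B-OE. UBTF, the architectural factor of ribosomal DNA, stood at 106 and 114 CPM in Control, 141, 121 and 116 CPM in SRSF2-OE, 103 and 114 CPM in SRSF4-OE, 107 and 104 CPM in the libraries labelled SRSF6-OE, 117, 109 and 131 CPM in SRSF9-OE and 103 and 146 CPM in TRA2B-OE. For RRN3, 10 of the 12 libraries lay between the Control values. For UBTF, every SRSF2-OE library lay above both Control libraries, and the other groups overlapped Control. Mean log2 fold changes were -0.03 ± 0.17 for RRN3 and 0.05 ± 0.13 for UBTF. Within the library ID set RRN3 differed by -0.37 in SRSF4-OE, -0.36 in the library labelled SRSF6-OE and 0.00 in TRA2B-OE. Within the numeric set it differed by 0.02, 0.27, 0.52, 0.22 and 0.00 in the usual order. For SRSF4-OE and the label SRSF6-OE its direction thus depended on the Control library. Subunits and factors were not compared by a test of their difference.

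**Figure D3:**
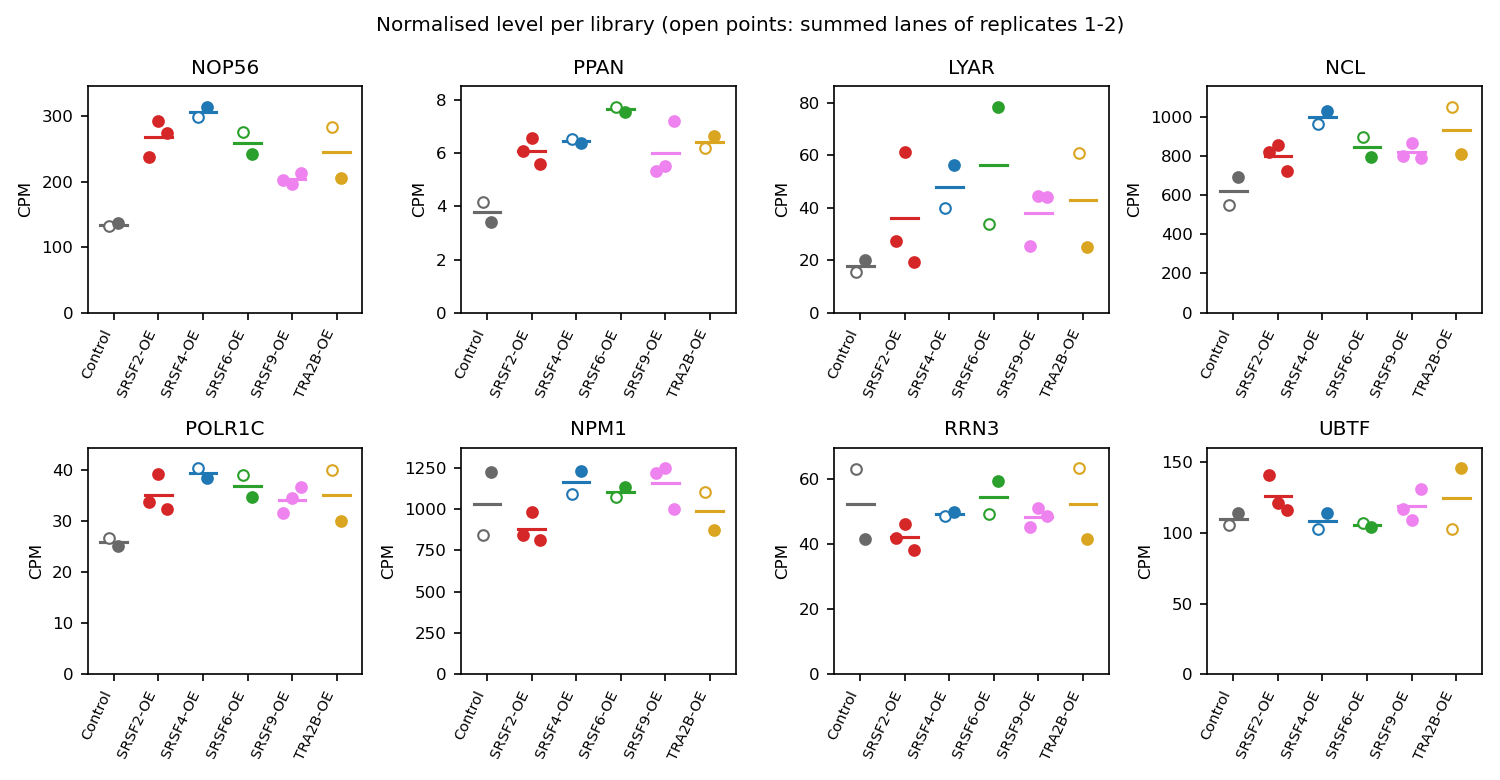
CPM per library (vertical axis, from 0) for 8 genes in the 6 groups; points are libraries, open points are the summed lanes of replicates 1-2, and short lines are group means. For NOP56, PPAN, NCL and POLR1C every coloured point is above both Control points, while for NPM1 and RRN3 each group overlaps Control. For UBTF the points of SRSF2-OE lie above Control and the other groups overlap it.

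Small subunit assembly was the largest role, with 14 genes tested. All 14 had a mean log2 fold change above 0, from 0.07 for WDR75 to 0.54 for RRP9, with a median of 0.39. For 5 of them (BYSL, RRP9, RRP12, NAT10 and TSR1) all 12 libraries lay above Control, against 4.31% of all genes. NAT10, which acetylates the small subunit RNA, stood at 71.6 and 91.8 CPM in Control, 123, 111 and 98.2 CPM in SRSF2-OE, 97.1 and 113 CPM in SRSF4-OE, 117 and 127 CPM in the libraries labelled SRSF6-OE, 106, 112 and 112 CPM in SRSF9-OE and 99.0 and 115 CPM in TRA2B-OE. The libraries labelled SRSF6-OE were the highest as a pair, with a log2 fold change of 0.59 ± 0.14 (edgeR adjusted p = 0.151, DESeq2 adjusted p = 5.9e-03).

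DDX10, an RNA helicase of early small subunit assembly, had its largest value in the libraries labelled SRSF6-OE. It stood at 24.7 and 23.9 CPM in Control, 27.3, 36.7 and 22.0 CPM in SRSF2-OE, 29.7 and 32.0 CPM in SRSF4-OE, 40.0 and 61.7 CPM in the libraries labelled SRSF6-OE, 28.0, 39.0 and 35.3 CPM in SRSF9-OE and 34.0 and 25.9 CPM in TRA2B-OE. Replicate 3 of the SRSF6-OE label was far above the summed library of that label, and SRSF2-OE replicate 3 was below Control. The log2 fold change was 1.06 ± 0.28 in the libraries labelled SRSF6-OE (edgeR adjusted p = 0.158, DESeq2 adjusted p = 0.0227) and 0.20 to 0.45 in the other groups.

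HEATR1, a large scaffold of the early small subunit particle, stood at 215 and 234 CPM in Control, 225, 246 and 219 CPM in SRSF2-OE, 259 and 276 CPM in SRSF4-OE, 257 and 275 CPM in the libraries labelled SRSF6-OE, 262, 297 and 265 CPM in SRSF9-OE and 240 and 230 CPM in TRA2B-OE. Its values in SRSF2-OE and TRA2B-OE overlapped Control, and its mean log2 fold change was 0.17 ± 0.11. HEATR1 shares 2095 exon bases with LGALS8 on the opposite strand, and the sources used here do not say whether counting used strand. The helicase DDX21 ranged from 222 to 478 CPM, also with its extremes in SRSF2-OE replicate 3 and in replicate 3 labelled SRSF6-OE. NOB1, the nuclease of the last cut of the small subunit RNA, had the widest span among the other small subunit genes, from 71.1 CPM in Control replicates 1-2 to 206 CPM in SRSF2-OE replicate 2, but Control replicate 3 was at 140 CPM. The remaining genes, NOP14, WDR43, WDR75, UTP15 and UTP20, had mean log2 fold changes of 0.07 to 0.33.

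In large subunit assembly, 8 of 11 genes had all 12 libraries above both Control libraries, against 4.31% of all genes. PPAN, a factor of early large subunit assembly, stood at 4.16 and 3.41 CPM in Control, 6.09, 6.59 and 5.60 CPM in SRSF2-OE, 6.55 and 6.38 CPM in SRSF4-OE, 7.76 and 7.56 CPM in the libraries labelled SRSF6-OE, 5.32, 5.53 and 7.22 CPM in SRSF9-OE and 6.21 and 6.66 CPM in TRA2B-OE. It was the least abundant gene of the list per kilobase, and the Control libraries were the lowest 2 of the 14. The log2 fold change was 0.72 ± 0.23, 0.77 ± 0.23, 1.02 ± 0.23, 0.70 ± 0.23 and 0.77 ± 0.23 in the usual order, with edgeR adjusted p-values of 0.246, 0.242, 0.136, 0.870 and 0.268 and DESeq2 adjusted p-values of 0.0496, 0.0252, 7.1e-04, 0.569 and 0.0359. PPAN shares 1447 exon bases with the read-through gene PPAN-P2RY11, and reads there could have been assigned to neither.

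NOP2, which methylates the large subunit RNA, stood at 61.8 and 63.5 CPM in Control, 92.0, 129 and 72.1 CPM in SRSF2-OE, 120 and 110 CPM in SRSF4-OE, 120 and 119 CPM in the libraries labelled SRSF6-OE, 87.4, 95.3 and 155 CPM in SRSF9-OE and 104 and 82.1 CPM in TRA2B-OE. Its mean log2 fold change was 0.79 ± 0.25 (edgeR adjusted p = 0.217, DESeq2 adjusted p = 0.0640). All libraries were above Control, but SRSF2-OE and SRSF9-OE each held a library far above the others of the group. NOP2 shares 2550 exon bases with AC006064.6 on the same strand in GENCODE 29.

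RRS1, which helps load the small RNA of the large subunit, stood at 15.2 and 20.2 CPM in Control, 25.9, 32.8 and 22.6 CPM in SRSF2-OE, 30.7 and 25.9 CPM in SRSF4-OE, 32.7 and 33.0 CPM in the libraries labelled SRSF6-OE, 20.8, 21.2 and 29.7 CPM in SRSF9-OE and 36.3 and 25.4 CPM in TRA2B-OE. Its values in SRSF9-OE reached down almost to Control replicate 3. In the libraries labelled SRSF6-OE its log2 fold change was 0.89 ± 0.27 (edgeR adjusted p = 0.170, DESeq2 adjusted p = 0.0443).

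EBNA1BP2, a factor of large subunit RNA processing, stood at 41.0 and 54.7 CPM in Control, 69.8, 88.8 and 62.3 CPM in SRSF2-OE, 71.3 and 90.3 CPM in SRSF4-OE, 69.4 and 79.9 CPM in the libraries labelled SRSF6-OE, 64.8, 72.2 and 80.8 CPM in SRSF9-OE and 83.7 and 67.1 CPM in TRA2B-OE. All 12 lay above Control, and the mean log2 fold change was 0.63 ± 0.18 (edgeR adjusted p = 0.187, DESeq2 adjusted p = 0.0453). GRWD1, a histone-binding WD-repeat protein found with pre-ribosomes, stood at 37.1 and 40.0 CPM in Control, 58.8, 69.3 and 58.2 CPM in SRSF2-OE, 46.5 and 54.1 CPM in SRSF4-OE, 58.5 and 66.0 CPM in the libraries labelled SRSF6-OE, 42.2, 41.1 and 58.9 CPM in SRSF9-OE and 53.3 and 56.6 CPM in TRA2B-OE. It too was above Control in all 12 libraries, and closest to it in SRSF9-OE. Its log2 fold change was 0.69 ± 0.18 in the libraries labelled SRSF6-OE (edgeR adjusted p = 0.156, DESeq2 adjusted p = 0.0281) and 0.23 ± 0.18 in SRSF9-OE.

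PES1, which with WDR12 belongs to a complex needed for large subunit RNA processing, stood at 75.3 and 97.7 CPM in Control, 109, 150 and 89.3 CPM in SRSF2-OE, 113 and 118 CPM in SRSF4-OE, 117 and 113 CPM in the libraries labelled SRSF6-OE, 102, 110 and 140 CPM in SRSF9-OE and 116 and 104 CPM in TRA2B-OE. SRSF2-OE replicate 3 was the exception that fell between the Control values, and the mean log2 fold change was 0.40 ± 0.20. GNL3 (nucleostemin, a nucleolar GTP-binding protein) stood at 103 and 98.9 CPM in Control, 111, 132 and 114 CPM in SRSF2-OE, 136 and 140 CPM in SRSF4-OE, 131 and 129 CPM in the libraries labelled SRSF6-OE, 116, 149 and 131 CPM in SRSF9-OE and 155 and 111 CPM in TRA2B-OE. All 12 were above Control, with a mean log2 fold change of 0.39 ± 0.14.

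The large subunit genes nearest to Control were NOP16 and DDX18. NOP16 stood at 95.0 and 124 CPM in Control, 144, 164 and 121 CPM in SRSF2-OE, 114 and 126 CPM in SRSF4-OE, 112 and 103 CPM in the libraries labelled SRSF6-OE, 121, 110 and 143 CPM in SRSF9-OE and 125 and 142 CPM in TRA2B-OE. Both libraries labelled SRSF6-OE fell between the Control values (log2 fold change -0.01 ± 0.19), and those of TRA2B-OE lay above them. DDX18, a helicase, ranged from 69.7 to 98.9 CPM, with 3 libraries below and 9 above both Control libraries. RRP1B and WDR12 were above Control in all 12 libraries, with mean log2 fold changes of 0.40 and 0.39.

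LYAR and MYBBP1A, nucleolar proteins outside those complexes, had large fold changes, with a large error for LYAR. LYAR, a nucleolar zinc finger protein tied to growth and to ribosomal RNA transcription and processing, stood at 15.4 and 20.2 CPM in Control, 27.5, 61.3 and 19.2 CPM in SRSF2-OE, 39.8 and 56.2 CPM in SRSF4-OE, 33.8 and 78.6 CPM in the libraries labelled SRSF6-OE, 25.6, 44.4 and 44.1 CPM in SRSF9-OE and 60.8 and 25.2 CPM in TRA2B-OE. Libraries of the same group differed more than 2-fold in SRSF2-OE, TRA2B-OE and the group labelled SRSF6-OE, and SRSF2-OE replicate 3 lay below Control replicate 3. Its log2 fold change was the largest of the list in each comparison other than SRSF2-OE, where NOP56 came first: 0.91 ± 0.60, 1.43 ± 0.61, 1.63 ± 0.61, 0.99 ± 0.60 and 1.34 ± 0.62. The edgeR adjusted p was 0.530, 0.317, 0.213, 0.870 and 0.425.

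MYBBP1A, a MYB-binding protein that takes part in ribosomal RNA synthesis and processing, stood at 69.2 and 87.8 CPM in Control, 123, 190 and 101 CPM in SRSF2-OE, 137 and 144 CPM in SRSF4-OE, 130 and 133 CPM in the libraries labelled SRSF6-OE, 116, 133 and 189 CPM in SRSF9-OE and 132 and 119 CPM in TRA2B-OE. All 12 libraries were above Control. The mean log2 fold change was 0.78 ± 0.25 (edgeR adjusted p = 0.216, DESeq2 adjusted p = 0.0630).

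The rest of the pathway was read from 2 further lists, one of 116 other assembly genes, of which 109 were tested, and one of 79 ribosomal protein genes, of which 74 were tested. Other assembly genes were above Control for 83, 92, 91, 91 and 97 of 109 genes in the 5 comparisons, with medians of 0.19, 0.28, 0.25, 0.22 and 0.22. DESeq2 called 3, 4, 9, 1 and 1 of them higher, where it called 1.27%, 1.43%, 3.77%, 0.0563% and 1.27% of all genes, and edgeR called 0 (23, 25, 22, 10 and 24 were higher at an unadjusted p under 0.05). In TRA2B-OE, 1 of 109 is below the share of all genes. Among those DESeq2 called, TCOF1 (treacle, a nucleolar partner of RNA polymerase I) was at 60.0 and 69.6 CPM in Control and at 117 and 129 CPM in the libraries labelled SRSF6-OE, a log2 fold change of 0.92 ± 0.20 (edgeR adjusted p = 0.136, DESeq2 adjusted p = 3.1e-03). PIH1D1, a cofactor of snoRNP assembly, was at 39.5 and 41.3 CPM in Control and at 70.2 and 71.1 CPM in the libraries labelled SRSF6-OE, a log2 fold change of 0.81 ± 0.14 (edgeR adjusted p = 0.104, DESeq2 adjusted p = 1.2e-04). DDX55, a large subunit helicase, was at 30.3 and 27.2 CPM in Control and at 40.8, 42.9 and 42.4 CPM in SRSF9-OE, a log2 fold change of 0.58 ± 0.12 (edgeR adjusted p = 0.870, DESeq2 adjusted p = 2.8e-03). In SRSF2-OE the calls were NOP9, NOL6 and NOC2L, with log2 fold changes of 0.56 ± 0.14, 0.83 ± 0.21 and 0.66 ± 0.17.

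Ribosomal protein genes had medians near or below 0 in the fit of all libraries, and their direction depended on the Control library. They were above Control for 32, 18, 34, 36 and 19 of 74 genes, with medians of -0.02, -0.12, -0.06, -0.00 and -0.12. RPS18 was the DESeq2 call among them, lower in SRSF4-OE, the libraries labelled SRSF6-OE, TRA2B-OE and the mean of the 5 groups, but it was at 1.37 CPM or less in all 14 libraries, and as a gene with near-identical copies it may have lost reads in the authors' counting, so its fold change is uncertain. Within the library ID set, against Control replicates 1-2, they were higher for 61, 57 and 49 of 74 genes in SRSF4-OE, the library labelled SRSF6-OE and TRA2B-OE, the same direction as the biogenesis genes. Within the numeric set, against Control replicate 3, they were higher for 17, 6, 18, 7 and 14 of 74 genes in the 5 groups. The difference between the lists was not tested.

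**Figure D4:**
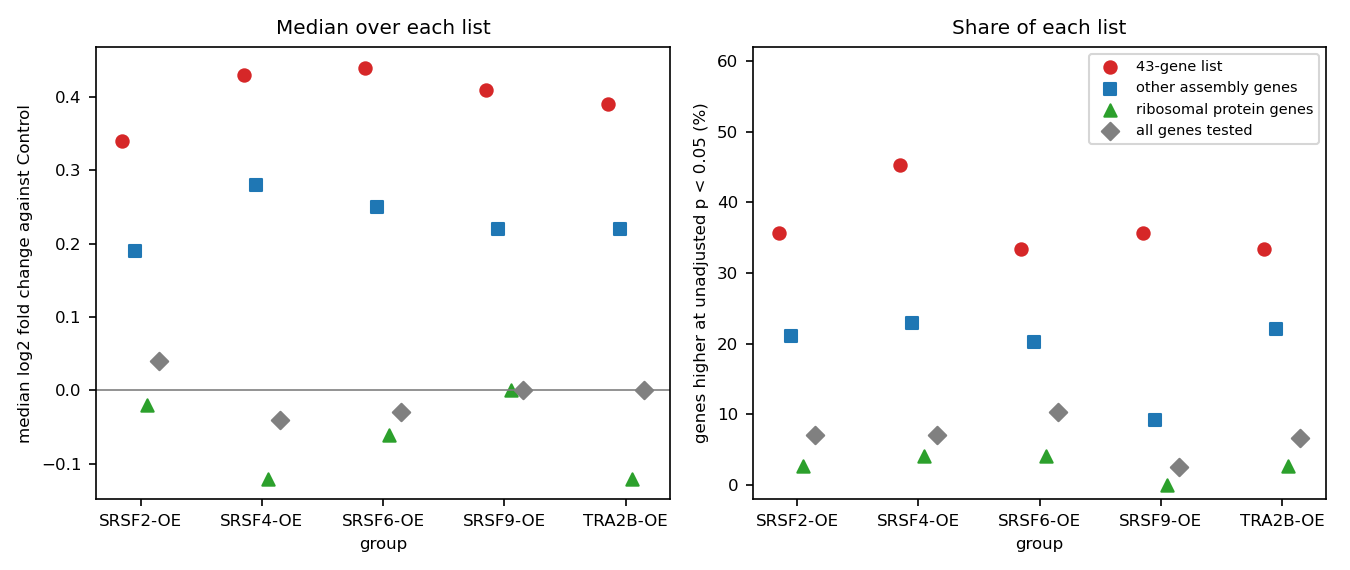
Left, median log2 fold change against Control over each list in each overexpression group; right, the percentage of each list that was higher at an unadjusted p under 0.05. The 43-gene list (42 tested) is uppermost in each group in both panels, other assembly genes come next, and ribosomal protein genes lie near or below all genes tested.

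The Control libraries differed from each other, and the list's difference from Control was recomputed within each label set. Control replicates 1-2 held the lowest value of the 14 libraries for 27 of the 42 genes and Control replicate 3 for 8. The same count was not made over all genes, so it may not be particular to the list. Control replicates 1-2 minus Control replicate 3 gave a median log2 difference of -0.13 over the biogenesis genes, -0.49 over the ribosomal protein genes and -1.10 over 18 proliferation markers. Within the library ID set, 1 library against 1, the list's median was 0.51 in SRSF4-OE (39 of 42 genes higher), 0.50 in the library labelled SRSF6-OE (40) and 0.59 in TRA2B-OE (40). Over all genes these medians were -0.03, -0.04 and -0.02, with 47.9%, 47.5% and 49.0% higher. Within the numeric set the list's median was 0.26 in SRSF2-OE (35), 0.43 in SRSF4-OE (39), 0.40 in the library labelled SRSF6-OE (37), 0.28 in SRSF9-OE (41) and 0.21 in TRA2B-OE (34). The all-gene medians there were -0.02, -0.01, -0.02, -0.01 and -0.00, with 48.9%, 49.0%, 49.0%, 48.7% and 49.6% higher. The direction of the list's median was thus the same within both sets, each with 1 Control library, and its size was smaller against Control replicate 3. Ribosomal protein genes had medians of 0.20, 0.20 and 0.08 in the library ID set and -0.39, -0.41 and -0.25 in the numeric set for SRSF4-OE, the label SRSF6-OE and TRA2B-OE.

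Proliferation markers and MYC were read beside the list in each library. As the median deviation from each gene's mean over the 14 libraries, in log2 units, the biogenesis genes were at -0.48 and -0.27 in Control, -0.01, 0.26 and -0.19 in SRSF2-OE, 0.07 and 0.17 in SRSF4-OE, 0.03 and 0.14 in the libraries labelled SRSF6-OE, -0.10, 0.11 and 0.17 in SRSF9-OE and 0.10 and -0.09 in TRA2B-OE. The proliferation markers were at -1.40 and -0.28, then 0.59, -0.99 and 0.29, then 0.16 and 0.88, then 0.69 and 0.14, then 0.25, -0.12 and -1.35, then 0.40 and 0.83 in the same libraries. Control replicates 1-2 was lowest in both, but SRSF2-OE replicate 2 and SRSF9-OE replicate 3 were high in the biogenesis genes (36 of 42 genes above their own mean in each) and low in the proliferation markers. Over all genes, the median deviations of SRSF2-OE replicate 2 and SRSF9-OE replicate 3 were -0.01 and 0.00. The 18 markers were all above Control in SRSF2-OE, SRSF4-OE, SRSF9-OE and TRA2B-OE and 17 of 18 in the libraries labelled SRSF6-OE, with medians of 0.67, 1.22, 0.41, 1.36 and 1.21. Within the numeric set, against Control replicate 3, they were higher for 12 of 18 in SRSF2-OE (median 0.26), 18 in SRSF4-OE (1.01), 13 in the library labelled SRSF6-OE (0.32), 9 in SRSF9-OE (-0.00) and 18 in TRA2B-OE (1.11).

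MYC was at 322 and 426 CPM in Control, 502, 904 and 355 CPM in SRSF2-OE, 481 and 574 CPM in SRSF4-OE, 521 and 646 CPM in the libraries labelled SRSF6-OE, 496, 553 and 746 CPM in SRSF9-OE and 379 and 425 CPM in TRA2B-OE. SRSF2-OE replicate 2, the highest library for MYC, held the highest value of 14 of the 42 biogenesis genes, and Control replicates 1-2 was lowest in both. TRA2B-OE replicates 1-2 held the highest value of 10 genes with a MYC level below that of Control replicate 3. Counts of highest values were not made over all genes. SRSF2-OE replicate 3 and TRA2B-OE replicate 3 were also below Control replicate 3 in MYC. Their median deviations of the biogenesis genes (-0.19 and -0.09) were above those of both Control libraries (-0.48 and -0.27). The log2 fold change of MYC was 0.12 ± 0.36 in TRA2B-OE and 0.50 to 0.65 in the other groups, with edgeR adjusted p-values of 0.331 to 0.933. The part of MYC, of proliferation and of the Control libraries in the list's difference was not tested.

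**Figure D5:**
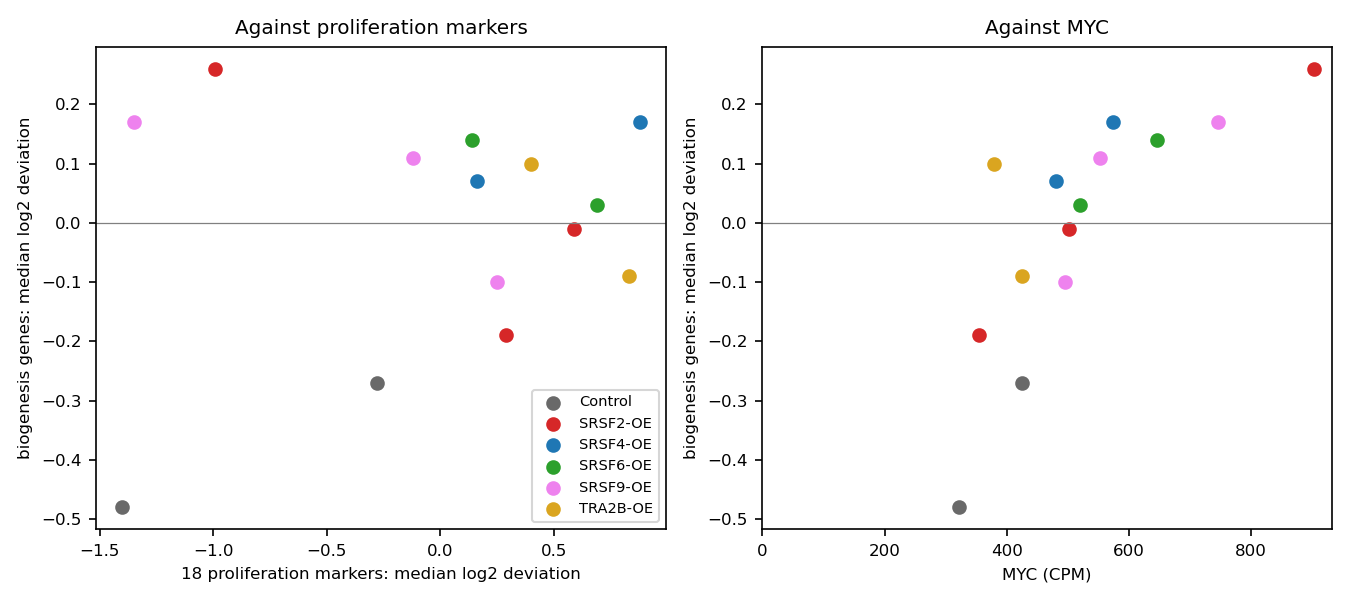
Median log2 deviation of the biogenesis genes (vertical axes) in each of the 14 libraries, coloured by group, against that of 18 proliferation markers (left) and against MYC in CPM (right). Control replicates 1-2 is at the lower left of both panels, and SRSF2-OE replicate 2 is at the top of both, to the left for the proliferation markers (-0.99) and to the right for MYC (904 CPM).

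Markers of other cell types were mostly near 0, with exceptions among the fibroblast and endothelial genes. Fibroblast markers summed to 264 to 550 CPM in Control and 160 to 434 CPM in the overexpression libraries, with 4 of 7 passing the filter and COL1A2, COL3A1, LUM and PDGFRA under 1 CPM in every library. Nearly all of the sum came from DCN (decorin, 6.30 to 413 CPM) and COL1A1 (a collagen chain, 44.0 to 278 CPM), levels as high as those of many biogenesis genes, and PDGFRB was at 2.68 CPM or less. DCN was highest in Control replicates 1-2 and lowest in TRA2B-OE replicate 3. The part of these markers in the list's difference was not tested. Leukocyte markers summed to 1.96 to 2.63 CPM in Control and 2.88 to 6.70 CPM in the other libraries (2 of 4 passing; PTPRC and CD3E under 1 CPM throughout). Endothelial markers summed to 20.4 to 26.4 CPM in Control and 4.35 to 15.5 CPM in the others (2 of 4; CDH5 and VWF under 1 CPM throughout), with KDR at 20.1 and 26.2 CPM in Control and 2.24 to 12.5 CPM in the others, and adipocyte markers to at most 3.04 CPM (1 of 3; ADIPOQ at 0 in all 14 libraries).

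Between overexpression groups, the list's median differences were smaller than those against Control. In the 10 direct contrasts, edgeR and DESeq2 each called 0 biogenesis genes, and 11 of 420 gene tests (2.62%) had an unadjusted p under 0.05, against 8.50% of all gene tests. The list's median lay between -0.08 (TRA2B-OE against SRSF4-OE, 34 of 42 genes lower) and 0.12 (SRSF4-OE against SRSF2-OE, 34 of 42 higher). Over all genes the medians of these contrasts were 0.05 and -0.06, with 55.4% and 44.2% of genes higher, so the list moved the other way. Single libraries of a group had an SD of 0.18 in their median log2 CPM over the list. That is another measure, and not the error of the list's medians. A p above the threshold does not show that the groups were alike.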

How the data were processed

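RNA was sequenced from 18 samples in 6 groups with a stranded mRNA kit and paired reads of 101 bases, per the labels' protocols. The deposited values are raw gene counts over 60252 Ensembl IDs, made by the authors, with Trimmomatic 0.36, STAR 2.5.1b, featureCounts (Subread) and GRCh37 named in the submitters' processing notes. The strand setting and the treatment of reads with several matches are not given in the sources used here. Samples held 36426438 to 70515965 counts. Replicates 1 and 2 of 4 groups carry 1 library ID, and their counts differed far less than those of other pairs (mean chi-square per gene 3.82 to 9.06, against 58.8 to 318), so they were summed to 1 library, which left 14. Genes were matched to symbols by Ensembl ID.

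Counts were fitted with edgeR 4.0.16 (R 4.3.3; filterByExpr with a minimum count of 10, TMM, quasi-likelihood test, group plus label set, 7 residual degrees of freedom). Adjusted p-values are Benjamini-Hochberg over all 21326 genes tested, with a threshold of 0.05; tests are two-sided, and each ± beside a log2 fold change is an SE. DESeq2 1.42.0 with the same design and limma-voom (limma 3.58.1) were alternatives, with other scaling, no filter, no label set term, a replicate block, single label sets, 18 samples as replicates and each library left out. The code was tested on simulated counts with the means, library sizes and spread of these data. In these, edgeR recovered 0% of 1.5-fold and 2.00 to 10.4% of 2-fold changes, and called 3 or 4 unchanged genes per comparison. DESeq2 recovered 0 to 6.00% and 12.5 to 31.2%, and called 45 to 58 unchanged genes per comparison.

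The 43 genes and all further lists were chosen with earlier results of these data known. Values in every library are given for genes called by edgeR in any test or by DESeq2 against Control, the 3 largest and 2 smallest log2 fold changes in each comparison with Control, and genes that stand for a role (NOP56, FBL, DKC1, NCL, NPM1, POLR1B, RRN3, UBTF, HEATR1, PES1 and GNL3). Of the other lists, genes called by edgeR and up to 4 per comparison called by DESeq2 qualified, and examples among these are given. Gene models are from GENCODE 29 on GRCh38, a build other than that of the counts, and were used for exon lengths and overlaps.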

Additional observations from a re-analysis of the deposited data

How the results depend on the processing

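The list's median stayed above 0 in all 5 comparisons with Control under every alternative run. Its count of called genes did not hold. With 18 samples as replicates, which counts the lanes of 1 library as separate samples, edgeR called 9 of 42 genes in SRSF2-OE, 24 in SRSF4-OE, 22 in the libraries labelled SRSF6-OE, 0 in SRSF9-OE and 21 in TRA2B-OE, 24 for the mean of the 5 groups and 17 for any difference, where it called 6.40%, 16.5%, 19.2%, 0.0238%, 13.8%, 18.2% and 17.7% of all genes. DESeq2 called 2, 4, 7, 0, 2, 6 and 2 in that order, and limma-voom called 0. With SRSF2-OE replicate 1 and TRA2B-OE replicate 3 left out, edgeR called 1 gene (NOP56) in SRSF4-OE (1.20 ± 0.16, adjusted p = 0.0374), where 0.396% of all genes were called against 0% with all libraries, and 1, also NOP56, for the mean (0.98 ± 0.13, adjusted p = 0.0282), where 0.355% of all genes were called. Leaving out each library in turn gave 0 to 1 called genes in SRSF2-OE and 0 in each other comparison, with list medians of 0.22 to 0.52 in SRSF2-OE, 0.42 to 0.58 in SRSF4-OE, 0.34 to 0.56 in the libraries labelled SRSF6-OE, 0.31 to 0.52 in SRSF9-OE and 0.22 to 0.54 in TRA2B-OE. The highest were without Control replicate 3, other than in TRA2B-OE, where it was without TRA2B-OE replicate 3. In the numeric label set alone the median in TRA2B-OE was 0.19. NPM1 in SRSF2-OE turned from -0.28 to 0.10 (adjusted p = 0.947) without Control replicate 3, within leave-one-out values of -0.48 to 0.10 (-0.37 without SRSF2-OE replicate 2). Scaling by total counts moved the median of all genes to -0.18 in the libraries labelled SRSF6-OE, where the list's median was 0.28 (37 of 42 higher). With the replicate number as a block, 0 biogenesis genes were called in any comparison, and the list medians were 0.30, 0.43, 0.44, 0.34 and 0.38. Deviations of same-numbered libraries from their group means correlated above 0.1 in 12 of 23 pairs (range -0.53 to 0.58, median 0.14). For libraries with different numbers it was 21 of 58 pairs (range -0.68 to 0.64, median -0.05). In groups of 2 libraries the deviations mirror each other, and the summed replicates 1-2 are also a label set. Whether replicate numbers paired the samples therefore cannot be told from these values. Fits of the compared libraries alone give no value for the mean, any difference or the direct contrasts. The cause of these changes was not tested.

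Most groups held 2 libraries and all comparisons rest on the same 2 Control libraries, which bounds what the tests can call. PPAN, at 3.41 to 7.76 CPM, was the gene with the fewest counts per kilobase. DKC1 could not be measured.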
